A study of Drosophila melanogaster with 3 samples.

Results

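Of the 9419 peak summits that the authors kept for GFP-tagged Rel, 1014 lay in later introns, which is 10.8% (exact Clopper-Pearson 95% interval 10.1 to 11.4). A summit is the position of highest signal in a peak. It was counted here when it lay more than 500 bp from every annotated transcription start site (TSS), in no annotated exon, inside an intron of a protein-coding gene, and in the first intron of no protein-coding transcript. Chromatin immunoprecipitation followed by sequencing (ChIP-seq) was carried out with an antibody against GFP on whole wandering larvae of the third (last) instar of Drosophila melanogaster, males and females pooled, of unknown age. The larvae came from 1 transgenic line that stably expresses Rel with GFP at its N-terminus. All 3 samples are biological replicates of this single group, and the control line named in the labels was not analysed here, so no condition was compared with another. Whole larvae mix all tissues, so a peak carries no tissue of its own.

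Rel, also called Relish, acts as the NF-κB transcription factor of the IMD pathway, which answers bacterial peptidoglycan in the fat body, gut and blood cells. On signalling it is cut, and its Rel homology part moves to the nucleus and binds κB sites, short sequences with a run of G at one end and a run of C at the other. Introns of flies often hold enhancers, the regulatory sequences that raise transcription from a distance. A first intron follows the first exon of its transcript, whereas a later intron comes after the first intron and at least 1 further exon. A later intron can still lie close to the start of another transcript or of a gene nested inside it.

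The sequences below show the κB matches under later-intron peaks of 8 named genes, at ranks 46 to 1525 of the whole list by signal. Each stretch of 50 bases is written 5′ to 3′ on the strand given, from the RefSeq release 6 sequence with dm6 coordinates, and capitals mark the match to the κB consensus. The consensus used is 10 bases long, with 3 G, a purine, 2 unspecified bases, 2 pyrimidines and 2 C, searched on both strands within 100 bp of the summit. The genes encode an uncharacterized protein (CG5921), the Toll pathway protein Pellino (Pli), the fly IκB (cact), a DYRK family kinase (mnb), a Ste20 family kinase of JNK signalling (msn), a bZIP transcription factor (Atf3), a Wnt receptor (fz2) and an ETS transcription factor of the EGFR pathway (pnt).
CG5921 (chrX:6062329-6062378, plus strand): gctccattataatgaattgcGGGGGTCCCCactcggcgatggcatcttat
Pli (chr3R:23885358-23885407, plus strand): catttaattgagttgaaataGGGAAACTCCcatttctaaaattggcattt
cact (chr2L:16319921-16319970, plus strand): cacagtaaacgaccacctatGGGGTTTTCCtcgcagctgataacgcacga
mnb (chrX:17876670-17876719, plus strand): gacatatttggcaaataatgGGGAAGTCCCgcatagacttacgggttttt
msn (chr3L:2579720-2579769, plus strand): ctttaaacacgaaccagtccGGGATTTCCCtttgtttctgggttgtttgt
Atf3 (chrX:1249017-1249066, plus strand): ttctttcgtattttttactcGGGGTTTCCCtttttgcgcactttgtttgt
fz2 (chr3L:19174918-19174967, minus strand): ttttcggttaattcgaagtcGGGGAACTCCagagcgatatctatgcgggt
pnt (chr3R:23296871-23296920, minus strand): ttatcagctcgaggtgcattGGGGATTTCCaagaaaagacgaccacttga

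Such a match was found at 6 of the 20 later-intron peaks of highest signal, beside 11.3% of all later-intron peaks and 7.8% of all optimal peaks. For contrast, 3 of the 20 without one are shown as the bases within 50 bp of the summit, plus strand. Capitals mark a relaxed κB match, in which the last 4 bases may be any pyrimidine, or the GATA motif (AGATAA or AGATAG, or the same with T as the first base, on either strand). The upd3 gene encodes a cytokine of the JAK-STAT pathway, Eip75B a nuclear receptor induced early by the steroid hormone ecdysone, and Nedd4 a ubiquitin ligase. The stretches of upd3 and Eip75B hold neither motif, which says only that these letters are absent from the window shown.
upd3 (chrX:18282483-18282583): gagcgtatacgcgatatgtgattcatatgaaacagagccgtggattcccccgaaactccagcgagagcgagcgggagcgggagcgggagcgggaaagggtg
Eip75B (chr3L:17973244-17973344): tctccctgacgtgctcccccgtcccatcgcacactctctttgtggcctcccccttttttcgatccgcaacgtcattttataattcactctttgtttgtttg
Nedd4 (chr3L:17532898-17532998): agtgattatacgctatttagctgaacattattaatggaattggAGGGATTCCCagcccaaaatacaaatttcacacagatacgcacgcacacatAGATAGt

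The peak lists hold no read counts, so the depth of each library is unknown, and intervals given here cover counting error only. Heights are the authors' deposited signal values, whose scale depends on the caller and on the library. In the optimal list, later-intron peaks ran from 191 to 11961 with a median of 366, against 378 in first introns, 374 in intergenic sequence and 389 at promoters, taken as sequence within 500 bp of a TSS. The top 25% of the list by signal held 228 of the 1014 later-intron peaks (22.5%, exact Clopper-Pearson 95% interval 19.9 to 25.2), against 25.8% of first-intron and 24.7% of intergenic peaks. Peak width had a median of 362 bp. The annotated transposable elements held 2 of the summits.

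Near the distance limit, 26 summits lay 500 to 600 bp from a TSS, with a median signal of 447. The 17 summits that met every other condition but lay 400 to 500 bp from a TSS had a median of 335.

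Later introns held fewer summits for their length than the large arms and arm 4 together, which had 70.4 per Mb. The 1014 summits lay in 29.5 Mb of sequence where a summit would meet the rule, which is 34.3 per Mb (exact Poisson 95% interval 32.3 to 36.5). First introns, by the same distance limit, held 2246 summits in 22.1 Mb, or 102 per Mb (97.6 to 106). Intergenic sequence held 881 summits in 36.5 Mb, or 24.2 per Mb (22.6 to 25.8). Later introns thus stood above intergenic sequence and below first introns, with intervals that do not overlap.

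This order also held at like distances from a TSS. Between 500 and 1000 bp, later introns had 90.5 summits per Mb (exact Poisson 95% interval 75.1 to 108), against 179 in first introns (164 to 195) and 58.8 in intergenic sequence (50.2 to 68.4). Between 2000 and 5000 bp the values were 47.4 per Mb in later introns, 99.6 in first introns and 30.5 in intergenic sequence. Beyond 10000 bp they were 14.4 per Mb in later introns (12.4 to 16.7), 41.7 in first introns (35.5 to 48.7) and 5.26 in intergenic sequence (4.08 to 6.67). In all 5 distance ranges the 3 classes stood in this order, and the density in each class was lower in each range farther from a TSS. At 1000 to 2000 bp the intervals of later introns (52.9 to 72.1) and intergenic sequence (43.3 to 56.4) overlapped.

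**Figure D1:**
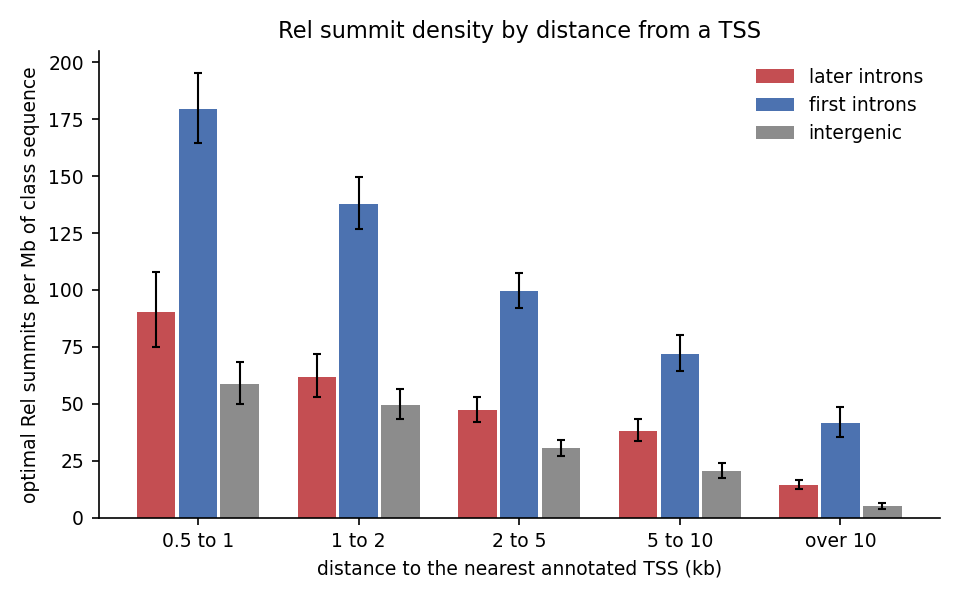
Optimal Rel summits per Mb of sequence (vertical axis) by distance to the nearest annotated TSS in kb (horizontal axis) for later introns, first introns and intergenic sequence, with exact Poisson 95% intervals as error bars. Later introns lie between first introns and intergenic sequence in all 5 ranges, from 90.5 per Mb nearest to a TSS to 14.4 per Mb in the farthest range.

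Within later introns the summits were not spread evenly. The second intron, counted on the transcript with the shortest intron around the summit, held 538 of the 1014 (51.1 per Mb), the third 202 (39.1 per Mb), and introns from the sixth on 80 (9.38 per Mb). Where transcripts number the same shortest intron differently, summits took the number of the first listed transcript and sequence that of the last. The densities by intron number are therefore approximate. Introns of over 50000 bp held 84 summits at 14.6 per Mb, against 45.6 per Mb in introns of 5000 to 20000 bp. Intron number, intron length and distance to a TSS vary together, and their separate parts were not tested. The median summit lay 3864 bp from the nearest TSS of any gene and 6558 bp from the nearest TSS of its own host.

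The nearest TSS belonged to the host for 576 summits (56.8%) and to another gene for 438. Among those nearest to another gene, 253 were nearest to another protein-coding gene, 134 to a noncoding RNA gene, 31 to a transfer RNA gene and 13 to a small nucleolar RNA gene. For 408 summits (40.2%) the host had a further TSS downstream, so that the intron is upstream sequence for a shorter transcript of the same gene. Chromosome arm 4, which is largely heterochromatic, held 1 summit (2.41 per Mb), and the other arms ran from 26 per Mb on 3R to 43.3 on 2L.

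How well the replicates agreed was asked for later-intron summits beside first-intron ones. All 3 replicates had a summit at most 100 bp away among their top 9419 peaks for 647 of 1014 (63.8%, exact Clopper-Pearson 95% interval 60.8 to 66.8), beside 64.3% of all optimal peaks. Matches were found in 2 replicates for 236 summits, in 1 for 123 and in none for 8. In replicates 1, 2 and 3 the share matched was 83.0%, 80.9% and 86.2% in later introns, against 83.5%, 82.9% and 86.7% in first introns. The difference was -0.99 ± 0.87 points (SD, n = 3, exact two-sided sign-flip permutation p = 0.25, the smallest that 3 replicates allow, so that 0.05 cannot be reached). It turned to 0.0788 points when summits were matched within 50 bp. Because the optimal list was made from the same replicates, this support is not independent of it.

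Signal differed little between the intron classes. The median log2 signal at later-intron peaks minus that at first-intron peaks was -0.11, -0.06 and -0.04 in replicates 1, 2 and 3, a mean of -0.07 ± 0.03 (SD, n = 3, exact two-sided sign-flip permutation p = 0.25, again the smallest possible). All 3 replicates gave the lower median to later introns.

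The strongest later-intron peak lay in upd3, at rank 14 of the whole list (X:18282000-18282989, in the third intron, 5300 bp from the TSS). Its relative signal, a replicate's signal divided by that replicate's median over matched optimal peaks, was 24.3, 36.6 and 27.4 in replicates 1, 2 and 3. EcR, which encodes the ecdysone receptor, followed at rank 17 (2R:6144227-6145219) with a relative signal of 26.9, 28.9 and 29.5. The EcR summit lay 2390 bp from the nearest TSS, which belongs to a transfer RNA gene nested in the same intron of 56758 bp. CG46385 was at rank 19 (2R:7775473-7776294) with 28.9, 28.6 and 27.8. The replicates of these 3 peaks overlap, so their order is not resolved.

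A gap separated these 3 from the next. CG5921 had a relative signal of 18.3, 23.2 and 19 (rank 46), and CG15098 had 17.4, 16.5 and 16.5 (rank 64). Pli, at rank 78, had 13.9, 18.3 and 14.1, and its summit was 4670 bp from the TSS in the second intron (3R:23884789-23885639). Eip75B, at rank 79, had 15.2, 17.0 and 13.9 (3L:17972226-17973684). Nedd4 was at rank 82 with 14.6 ± 0.66 and cact at rank 115 with 12.8 ± 0.79 (both mean ± SD, n = 3), the cact summit 5379 bp from its nearest TSS in an intron of 8101 bp (2L:16319585-16320595). CG11050, at rank 126, had the widest spread of the 20 for its height, with 13.5, 8.57 and 14.5.

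The other 10 of the 20 strongest lay in CG5910, CG6701, Exn, beat-Ib, Sdc, Glut4EF, eIF1A, Lasp, skd and Eaat1. Among these hosts are genes for the heparan sulfate proteoglycan syndecan (Sdc), a translation initiation factor (eIF1A), a subunit of the Mediator complex (skd) and a glutamate transporter (Eaat1). The mean relative signal over the 20 ran down to 8.26 at Eaat1. All 20 were matched among the top peaks of all 3 replicates, 11 lay in the second intron, and replicate 2 was the highest replicate in 12.

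**Figure D2:**
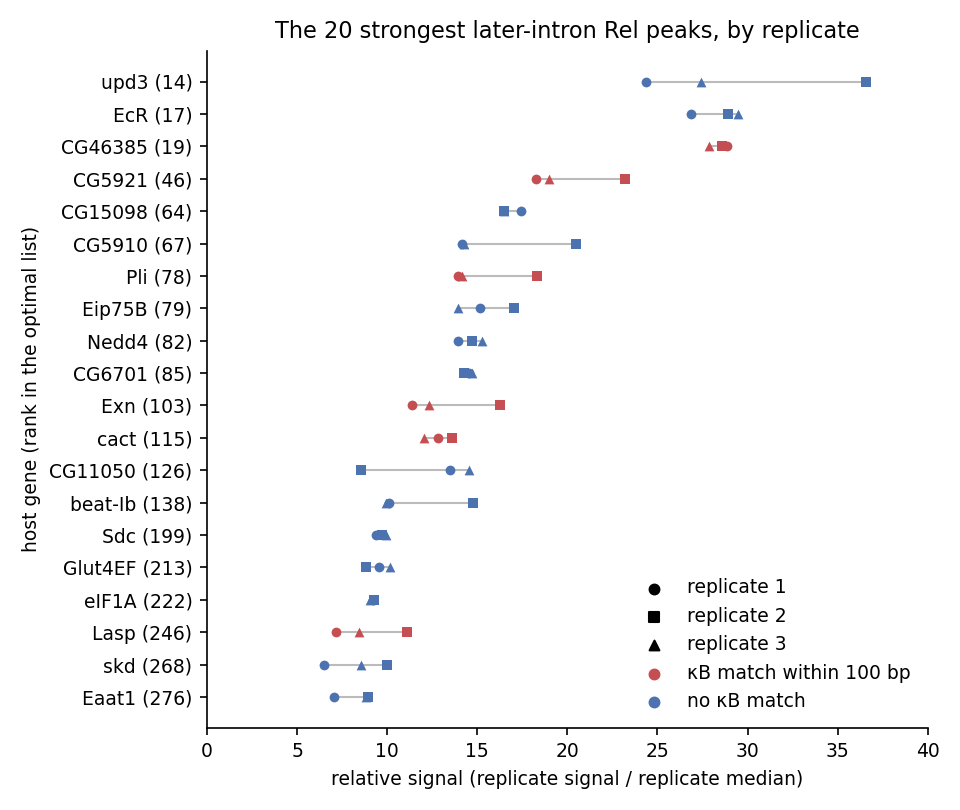
Relative signal (horizontal axis, replicate signal divided by the replicate's median) of the 20 later-intron peaks of highest signal, 1 row per host gene with the rank in the optimal list in parentheses, 1 symbol per replicate and a grey line over their range. The upd3, EcR and CG46385 peaks stand apart from the other 17, and 6 of the 20, in red, have a κB match.

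Matches to the κB consensus were concentrated at the summits. Within 100 bp of the summit, 115 of 1014 later-intron peaks had a match (11.3%, exact Clopper-Pearson 95% interval 9.45 to 13.5), beside 7.8% of all optimal peaks. In windows 1000 bp to either side the share was 1.13% (23 of 2028). In first introns 8.68% of summits had a match against 1.54% of flanks, in intergenic sequence 11% against 1.87%, and at promoters 5.08% against 2.00%. Exon summits had the highest share of the 5 classes, 17.0% (79 of 464, 13.7 to 20.8) against 1.51% of flanks. The relaxed consensus matched 25% of later-intron summits against 8.28% of flanks, beside 20.6% of all optimal peaks. Median GC content was 42.8% in the summit windows and 41.3% in the flanks, and its part in the match shares was not tested.

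Each replicate's own top list gave the same picture. Later-intron summits had a match in 9.52%, 13.3% and 10.1% of cases in replicates 1, 2 and 3, against 1.35%, 1.61% and 1.15% of their flanks. The difference was 9.60 ± 1.82 points (SD, n = 3, exact two-sided sign-flip permutation p = 0.25, the smallest possible). First-intron summits of the same lists had a match in 7.27%, 9.83% and 7.72%. Later introns were higher in all 3 replicates, by 2.70 ± 0.64 points (SD, n = 3, exact two-sided sign-flip permutation p = 0.25). This difference was not matched for distance to a TSS. In the optimal list the shares at 500 to 1000 bp were 8.2% in later and 7.72% in first introns. Beyond 10000 bp they were 16.1% (exact Clopper-Pearson 95% interval 11.2 to 22.2) and 8.07% (4.37 to 13.4), intervals that overlap. Later introns had the higher share in every distance range, but a difference at like distances was not tested. Replicate 2 had the highest share in both intron classes.

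**Figure D3:**
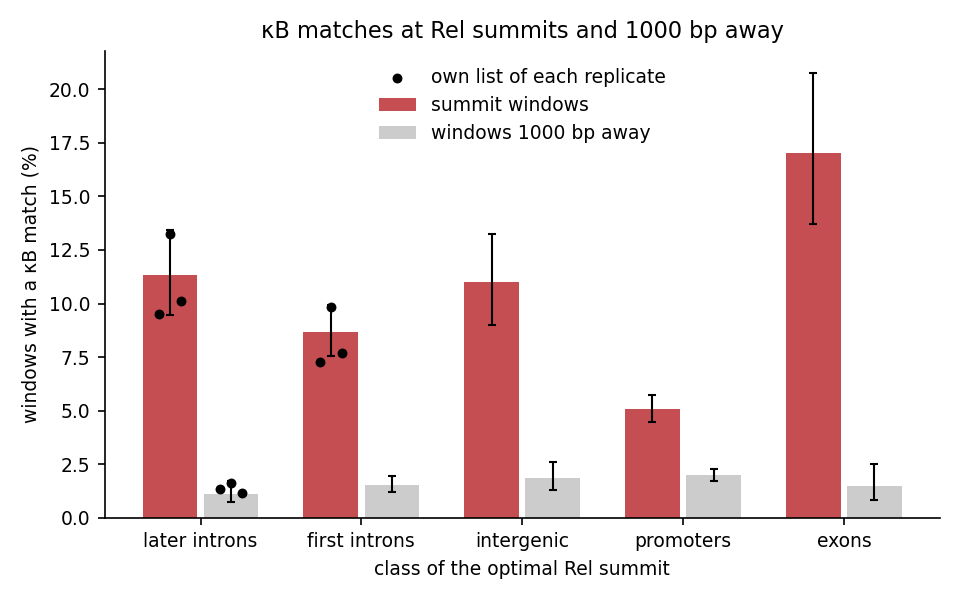
Share of windows with a κB match in percent (vertical axis) at optimal summits (red) and 1000 bp away (grey) for later introns, first introns, intergenic sequence, promoters and exons, with exact Clopper-Pearson 95% intervals, and points for each replicate's own list in the intron classes and the later-intron flanks. Later-intron summits stand at 11.3% against 1.13% in their flanks.

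Most matches sat close to the summit. Counting every matching position, overlapping ones included, 156 positions were found, of which 121 (77.6%) had their centre within 25 bp of the summit, 26 at 25 to 50 bp and 9 farther out, with a median of 13.5 bp. Of the 115 peaks, 4 had a second match that did not overlap the first. In the stretches above, the centre of the match was 0.5 bp from the summit at Pli, 4.5 bp at mnb, 5.5 bp at CG5921, 12.5 bp at msn and fz2, 26.5 bp at Atf3, 37.5 bp at pnt and 95.5 bp at cact. The commonest matching sequence was GGGATTCCCC or its reverse complement GGGGAATCCC, at 15 of the 156 positions (9.62%), against 7.55% of 808 positions at the other optimal summits. In all, 51 distinct sequences occurred.

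Peaks with a match were taller. Their median signal was 482, against 356 in later-intron peaks without one, and 39.1% against 20.4% were in the top 25% of the optimal list. By signal, 47 of the strongest 254 later-intron peaks had a match (18.5%, exact Clopper-Pearson 95% interval 13.9 to 23.8), against 18 of the weakest 254 (7.09%, 4.25 to 11), a difference of 11.4 points (95% interval 5.66 to 17.2 by Newcombe's method). The highest shares were in the strongest 2 of 10 equal groups by signal, with 24.5% and 17.6%, while the other 8 ran from 5.94% to 14.9% with no steady order. All 3 replicates matched 73.0% of the peaks with a κB match and 62.6% of those without. The share with a match also varied with position, with 30 of 186 summits (16.1%, 11.2 to 22.2) farther than 10000 bp from a TSS and 10 of 122 (8.2%, 4.0 to 14.6) at 500 to 1000 bp, intervals that overlap.

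**Figure D4:**
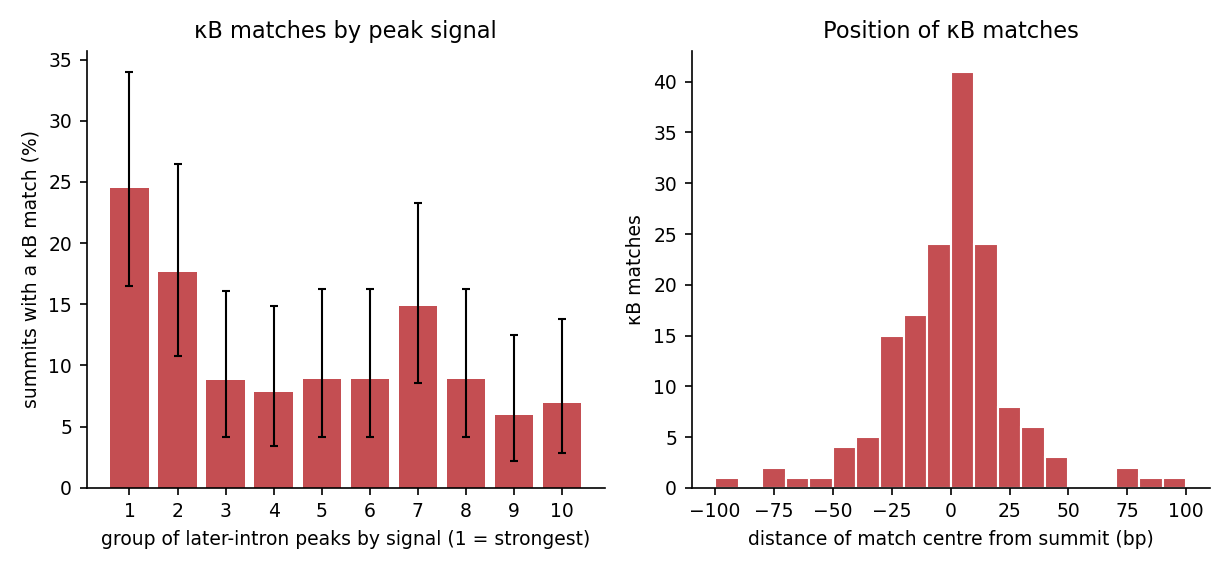
Left, share of later-intron summits with a κB match in percent (vertical axis) in 10 equal groups by signal from strongest to weakest (horizontal axis), with exact Clopper-Pearson 95% intervals. Right, number of κB matches (vertical axis) by distance of the match centre from the summit in bp (horizontal axis, 10 bp bins), with 121 of 156 within 25 bp.

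GATA motifs, bound by factors that include the fat body regulator Serpent, were common at these summits. They lay within 100 bp of 44.5% of later-intron summits, against 31.5% of flanks and 38.8% of all optimal summits. In the replicates' own lists the shares were 45.5%, 44.0% and 43.8% at summits, against 31.7%, 31.7% and 32.5% in flanks, a difference of 12.5 ± 1.30 points (SD, n = 3, exact two-sided sign-flip permutation p = 0.25). First-intron summits had 45.5% and promoter summits 34.6%. Among later-intron peaks with a κB match 36.5% had a GATA motif (exact Clopper-Pearson 95% interval 27.7 to 46.0), against 45.5% of those without (42.2 to 48.8). Neither a relaxed κB match nor a GATA motif was found at 404 of the 1014 summits (39.8%). This share was not computed for all optimal summits, other classes or flanks, so it cannot be called particular to later introns.

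Rarer motifs varied. The AP-1 motif (TGACTCA or TGAGTCA), bound by Fos and Jun proteins, was at 4.24% of summits (exact Clopper-Pearson 95% interval 3.09 to 5.67) against 1.78% of flanks and 3.08% of all optimal summits. GAGA repeats (GAGAGAG) were at 6.41% of summits (4.98 to 8.10) against 3.11% of flanks, and the 6.70% of all optimal summits lies within that interval. In the replicates' own lists the AP-1 difference was 2.09 ± 0.68 points and the GAGA difference 3.31 ± 0.57 (SD, n = 3, exact two-sided sign-flip permutation p = 0.25 each). The Stat92E motif (TTCNNNGAA) was at 6.61% against 5.92%. The general E-box (CANNTG) was at 65.8% of summits against 64.7% of flanks, its form CACGTG at 2.07% against 2.91%, and the Zelda motif (CAGGTAG) at 0.493% against 1.38%. The CRE motif (TGACGTCA) was at 0.789% against 0.394%. The E-box, Zelda and CRE motifs were compared over the optimal list only. The housekeeping promoter element DRE (TATCGATA) was at 0.296% of later-intron summits and 0.296% of flanks, against 6.18% of promoter summits. Ohler1, another core promoter element, was at 0 of 1014 later-intron summits, which allows a share of up to 0.363% (exact Clopper-Pearson), against 4.28% of promoter summits.

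The summits lay in a small set of genes. Of 7595 protein-coding genes with sequence that meets the rule, 480 hosted a summit (6.32%), of which 278 hosted 1, 154 hosted 2 to 4 and 48 hosted 5 or more. Hosts offered more sequence, with a median of 7.71 kb against 0.271 kb in the other genes. The 10 genes with the most summits, with ties settled by summed signal and then by name, held 130 of the 1014 (12.8%) in 2.24% of the sequence. Because these genes were picked by their counts, a share of summits above their share of sequence is partly built in. The 10 were Eip75B and Raf with 15 each, EcR and kirre with 14, tai, bun and CG1677 with 13, Tet with 12, mam with 11 and CG46467 with 10. Glut4EF and Pino also had 10, and Glut4EF overlaps CG46467 and shares its summits. Pino offered only 9.85 kb, so that its density was 1016 per Mb (exact Poisson 95% interval 487 to 1868). By length EcR was the densest of the 10, with 14 summits in 17.2 kb, a density of 815 per Mb (exact Poisson 95% interval 446 to 1368). By contrast the large adhesion gene kirre was the sparsest, with 14 in 293 kb, or 47.8 per Mb (26.1 to 80.1).

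Along single genes the later-intron summits came in runs of unequal height. In EcR the peak at rank 17 was followed by one at rank 1060, and the median signal of its 14 was 428. Eip75B had 15 later-intron summits beside 26 in first introns, with signals from 196 to 6197 in later introns. Raf, a kinase of the EGFR and Ras pathway, had all 15 of its intron summits in later introns, led by rank 516 (relative signal 4.05, 7.13 and 5.31). The intron of this leading peak, 43637 bp long, also holds 5 nested genes, namely CG14050, CG2854, Ilp6, lncRNA:CR33218 and lncRNA:CR34052. Which of these genes the summits belong to was not tested. In cact 8 of 12 summits were in later introns, at ranks that began with 115 and 494. No later-intron summit of Eip75B, Raf, EcR, CG1677, Tet or mam had a κB match, beside 11.3% of all later-intron summits. With so few summits per gene, a count of 0 says little about any of them. Among the other genes with most summits, kirre and CG46467 had 2 matches each, and tai and bun had 1 each. By the relaxed consensus Eip75B and EcR had 1 match each and Raf had 2.

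**Figure D5:**
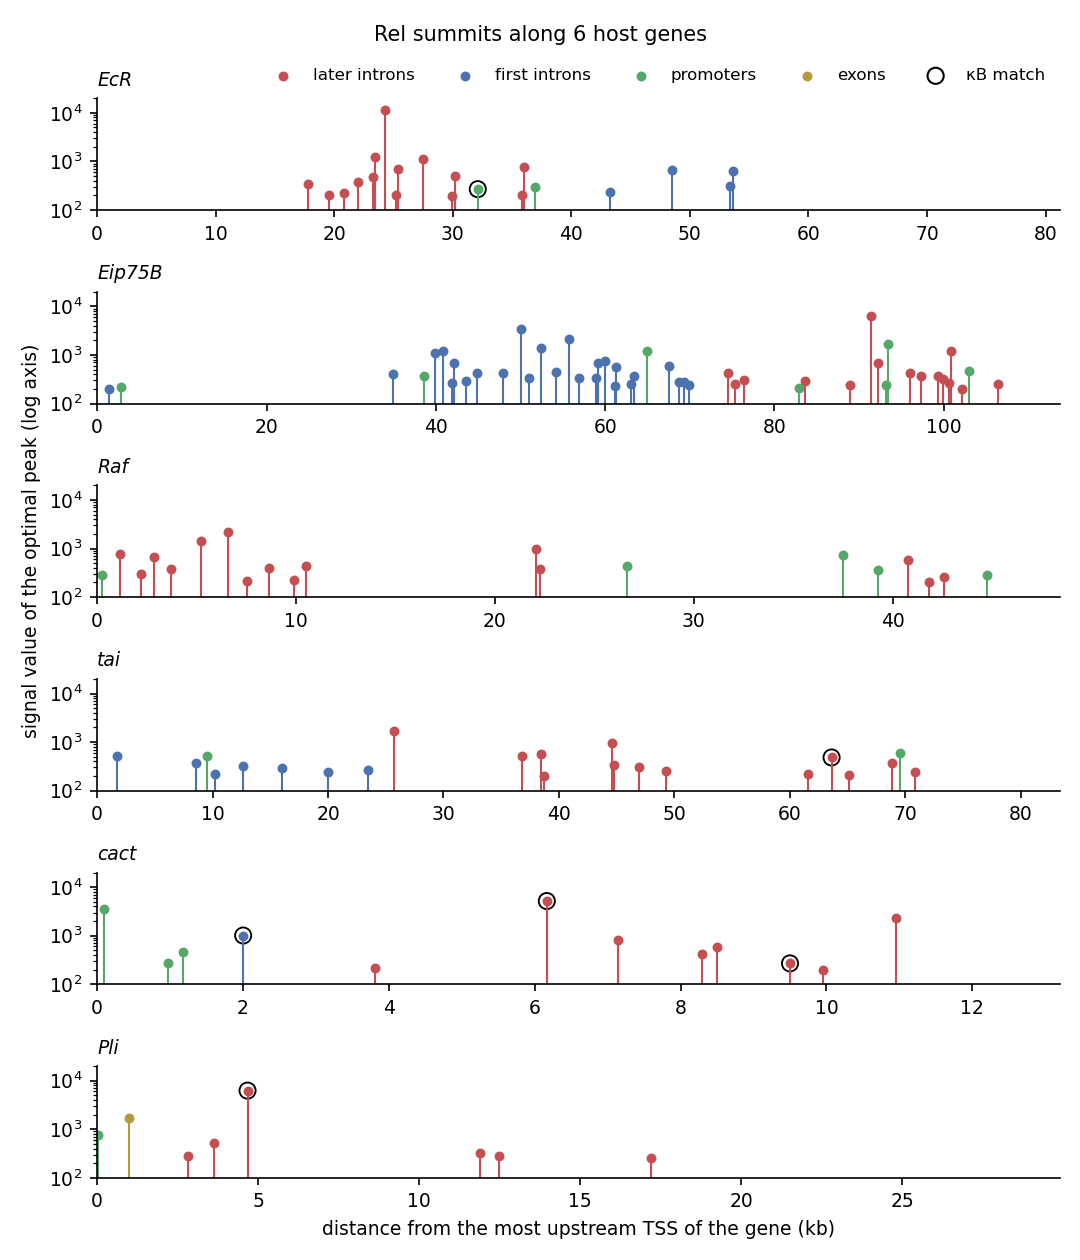
Optimal Rel summits along 6 host genes, with distance from the gene's most upstream TSS in kb (horizontal axis, 1 scale per gene) and the signal value of the peak (vertical axis, log scale), coloured by class, with black rings for a κB match. Later-intron summits (red) include the tallest peak of each of the 6 genes, among them EcR with 14 and Raf with 15 later-intron summits. The 6 genes were taken from those with the strongest or the most later-intron peaks, so this follows in part from the choice. Promoter here means within 500 bp of any gene's TSS.

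Lists of genes from known pathways were counted as hosts, beside 6.32% of all genes and 34.5 summits per Mb over all protein-coding genes. The lists were not matched to all genes for the length of sequence offered, which was larger in hosts than in other genes. Of 15 ecdysone response genes with sequence that meets the rule, 12 hosted a summit, with 72 summits in 357 kb, a density of 202 per Mb (exact Poisson 95% interval 158 to 254). Of these 72, Eip75B held 15, EcR 14 and tai 13. After EcR and Eip75B came tai, a coactivator of the ecdysone receptor (rank 719, relative signal 3.40, 4.29 and 4.97). The other 9 were Eip93F, Eip74EF, Hr39, Eip78C, Hr4, Eip63E, Eip63F-1, ftz-f1 and br, which include nuclear receptors and early response transcription factors.

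Toll pathway genes hosted 15 summits at 286 per Mb (160 to 472), in 3 of 14 genes, namely Pli with 6, cact with 8 and dl, the NF-κB factor Dorsal, with 1 (rank 7262). Of 16 IMD pathway genes, Tab2, an adaptor of the Tak1 kinase, hosted 2, at 125 per Mb (15.2 to 453), the stronger at rank 5817 with a relative signal of 0.888, 0.877 and 0.626. JAK-STAT genes hosted 3 summits at 65.2 per Mb (13.5 to 191) in 2 of 11 genes, the 1 of upd3 and 2 of the phosphatase gene Ptp61F (rank 1947). JNK and AP-1 genes hosted 11 at 210 per Mb (105 to 377), in msn (rank 396, relative signal 5.46, 7.35 and 6.51), Atf3 (rank 743) and puc, the JNK phosphatase (rank 998).

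Growth and patterning pathways lay between 88.4 per Mb (insulin and TOR, exact Poisson 95% interval 40.4 to 168) and 306 per Mb (TGF-β, 147 to 563). Single genes held much of several counts, so these densities need not hold across a list. Raf had 15 of the 23 EGFR and Ras summits, mam 11 of the 20 Notch and shn 7 of the 10 TGF-β. In the other lists fz2 had 9 of the 20 Wnt summits and InR 3 of the 9 insulin and TOR. EGFR and Ras genes hosted 23 summits in 4 of 14 genes, led by Raf, pnt (rank 1525) and Src42A (rank 3098). Notch genes hosted 20 in 5 of 11, led by mam, a coactivator of Notch (rank 1756), the receptor N (rank 3442) and its ligand Ser (rank 4161). Wnt genes hosted 20 in 3 of 15, the receptors fz2 (rank 1330) and fz (rank 3630) and the co-receptor arr (rank 1883). TGF-β genes hosted 10 in 3 of 12, shn (rank 654), the ligand daw (rank 2157) and the inhibitory Smad gene Dad (rank 2781). Insulin and TOR genes hosted 9 in 5 of 16, led by mnb (rank 350), the transcription factor foxo (rank 843) and the insulin receptor InR (rank 1753). Of 12 genes of GATA and fat body factors, grn, a GATA factor, hosted 4 summits at 80.4 per Mb (21.9 to 206), with a best rank of 2409. The intervals of the IMD, JAK-STAT and GATA lists span the 34.5 per Mb of all genes.

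Lists of genes used in the nervous system offered the most sequence of the 13 lists and had the lowest densities. The lists were not matched for intron length or distance to a TSS. Over all later introns, density was lower in introns of over 50000 bp (14.6 per Mb) than in those of 5000 to 20000 bp (45.6 per Mb). The part of this in the low densities was not tested. Axon guidance and adhesion genes had 3 summits in 628 kb, or 4.78 per Mb (0.985 to 14), in Dscam1 (rank 3258), Sema1a (rank 6588) and NetA (rank 6757). Ion channel genes had 1 summit in 595 kb, or 1.68 per Mb (0.0426 to 9.37), in Ork1 (rank 8653). The Dscam1 peak had a relative signal of 0.972, 1.87 and 1.03, near or above the replicate's median over matched optimal peaks. The Ork1 peak had 0.670, 0.546 and 0.450, below that median in all 3 replicates.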

How the data were processed

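Peaks were called by the authors in each of 3 replicates and on all 3 alignments together, with a control, on dm6, per the file headers, and each list holds 30000 peaks. The optimal list was kept by the authors by the irreproducible discovery rate, per the file headers. For the aligner, caller and threshold, the sources used here name nothing. Signal and −log10 q-value per peak are as deposited by the authors, and peaks were ranked by signal because all optimal peaks share the same −log10 q-value. The labels name Rel as the antibody in one field and anti-GFP in another. Chromatin fragments were 200 to 800 bp, per the labels.

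Ensembl release 115 annotation (BDGP6.54), without transposable elements, and the RefSeq release 6 sequence were used with Python 3.11.15, numpy 2.4.6, pandas 2.3.3 and scipy 1.17.1. Arm lengths were checked against the peaks. A summit can have several host introns, and it was then counted for every host gene, while intron number and length are those of the shortest. Density is summits per Mb of sequence where a summit would fall in the class. Motifs were searched in 201 bp windows on both strands. Replicate differences were tested by an exact sign-flip permutation over 3 replicates. Its p-value is 0.25 whenever all 3 differences share a sign, whatever their spread, and it covers these samples only. The functions were tested on simulated data.

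The peaks, the 13 gene lists (228 of 230 names matched) and the motifs were chosen with earlier results of these data known. Named genes are the hosts of the 20 later-intron peaks of highest signal, the 10 genes with most summits and up to 3 hosts of highest signal per list. Pino, the rest of the ecdysone hosts, and the peaks for which sequence is shown, were named after their values had been seen. Alternatives varied the TSS distance, summit matching, motif window and form, flank distance, peak subsets and replicates.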

Additional observations from a re-analysis of the deposited data

Results flagged for a closer look

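The list called on all 3 replicates together also held peaks that were not kept as optimal, and no comparison above used them. Of 20581 such summits, 3548 (17.2%) lay in later introns by the same rule. A κB match was within 100 bp of 140 of them (3.95%, exact Clopper-Pearson 95% interval 3.33 to 4.64), against 1.90% of windows 1000 bp away (1.60 to 2.25). The share is above that of the flanks and below the 11.3% of the optimal later-intron summits. No control sample was analysed, and with 3 replicates single samples were not tested as outliers.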

How the results depend on the processing

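Of 106 values under alternative settings, 96 stayed in the same direction and, for shares and densities, within the interval of the main value. The later-intron share was 9.47% with summits more than 1000 bp from any TSS and 10.1% in the stronger 50% of the list, and 999 summits met the rule with transposable elements kept, an alternative added after seeing the data. Density was 31.7 per Mb beyond 1000 bp, 16.1 in the stronger 50% of the list, and 23.7 to 25.4 without 1 replicate, where fewer peaks enter by construction. The difference in replicate support turned to 0.0788 points with matching within 50 bp, and the cause was not tested. With all peaks of each replicate list it was -0.0264 points. For summits more than 1000 bp from any TSS it was -0.345 points (exact two-sided sign-flip permutation p = 0.5), so that the 3 replicates did not share a sign. Both are counted as the same direction. The κB difference between strong and weak peaks was 18.5 points with the relaxed consensus and 17.8 between the top and bottom 10%. All 39 values for the gene lists lay within their main intervals. No paired analysis was possible because the series has 1 group, so no groups could be paired by replicate number, while the permutation tests above took differences between peak classes within each replicate. Unknown depth, 3 replicates (smallest p 0.25, or 0.5 with 2) and whole larvae limit these values.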
